A study of Homo sapiens with 29 samples.

Results

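Tumors given Helicon4 at 100 mpk were compared with tumors given the same compound at 30 mpk, to ask which of its transcript responses were already complete at the lower dose and which went further at the higher one. The libraries were chosen by their labelled compound and dose, which gave 5 at 100 mpk and 6 at 30 mpk, or 11 of the 29 libraries in the series. Of 13492 genes in the table, the 13373 that passed a filter on low values were all tested. Levels are given as CPM, the authors' scaled reads, for each library at 100 mpk and as lowest, median and highest over the 6 libraries at 30 mpk. Each tumor was a mouse xenograft of COLO320DM, a single human colorectal adenocarcinoma cell line that carries extra copies of MYC, and polyA RNA was sequenced. Helicon4 is a helicon peptide, and its stated target is β-catenin with its TCF partners. The groups used were Helicon4 at 100 mpk (n = 5), Helicon4 at 30 mpk (n = 6), Helicon4neg at 30 mpk (n = 8) and vehicle (n = 10), all labelled 48 hr, with mpk as the labels write the dose. No structure is given for Helicon4 or Helicon4neg, and the labels give neither the strain nor the age of the host mice. Apart from replicate numbers and title codes, nothing in the labels tells the libraries of a group apart or says which animals they came from, so p-values measure the spread between these libraries, which may in part be technical. Depth was 34.3 to 61.6 M whole reads per library at 100 mpk and 40.8 to 48.6 M at 30 mpk, against 26.8 to 60.9 M for vehicle.

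In Wnt signaling, β-catenin that escapes its destruction complex enters the nucleus, binds TCF and LEF factors on DNA and switches on their target genes. Many of these targets encode inhibitors of the same pathway, such as AXIN2, NKD1, NOTUM and the DKK proteins, so their transcripts serve as a readout of how much β-catenin and TCF are at work. In the gut this pathway maintains the stem cells of the crypt, and colorectal tumors commonly keep it switched on.

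More genes were called against vehicle at the higher dose than at the lower one, and 482 genes differed between the doses. Between 100 and 30 mpk, limma called 482 of 13373 genes, or 3.6%, at an adjusted p under 0.05. Of these, 233 (1.74%) were higher at 100 mpk and 249 (1.86%) were lower. A difference of at least 1.5-fold was reached by 74 of the higher genes (0.553%) and by 101 of the lower genes (0.755%). The libraries of the 2 doses did not overlap for 278 of the called genes (57.7%), against 3.92% of all genes tested. The count depended on single libraries, with 209 calls without 100 mpk library 2, 252 without 100 mpk library 3, 281 without 30 mpk library 2 and 253 without 30 mpk library 4. Set against vehicle, 4043 genes (30.2%) were called at 100 mpk and 1481 (11.1%) at 30 mpk, while Helicon4neg gave 647 (4.84%).

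Title codes of unstated meaning followed dose closely. Code SH7083 held 4 libraries at 100 mpk and 1 at 30 mpk (library 6), and the other 6 libraries carried codes that held 1 Helicon4 dose each, so code and dose can be told apart only within SH7083. Within it, all 482 called genes differed in the direction of the full comparison, which uses the same libraries. No code held both vehicle and Helicon4 libraries, since vehicle carried SH7078 to SH7080 and Helicon4 carried SH7081 to SH7084. Changes from vehicle, responder classes and shares at 30 mpk are therefore also confounded with code. The codes of vehicle and Helicon4 are linked only through Helicon4neg, which carried SH7080 and SH7081. With code as a block, 10 genes were called (7 higher and 3 lower), TAC3 (2.19), COL9A1 (1.82), KCNJ6 (-1.57), WIF1 (-1.82) and GC (-1.73) among them, and the other called genes named below were not. Library 5 at 100 mpk, the only one with its code, lay nearest of its group to the 30 mpk side in 30 of the 52 called genes named below (25 of 35 falls and 5 of 17 rises), against 14 for library 1 and 2 to 4 for each of the others, and the part of the code in this was not tested. Helicon4neg library 2 and vehicle library 6 stood apart from the rest of the series, with slopes of log2 value on log2 gene length of 0.04 and 0.17 against 0.26 or more in the other libraries, and without them 1052 genes were called between doses (474 higher and 578 lower), including all 482.

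To sort responses by dose, a Helicon4 response was first called from all 11 Helicon4 libraries against vehicle, weighted so that its error is uncorrelated with that of the dose difference. This gave 710 responders (5.31% of the genes tested) with an adjusted p under 0.05 and at least 1.5-fold change, of which 362 rose and 348 fell. A responder was termed deepened where the dose difference was called in the direction of the response, receded where it was called against it, and held where it was not called and its whole 95% interval lay within 0.32 of 0 on the log2 scale. By these rules 155 responders (21.8%) deepened, 37 (5.21%) held and 2 receded, and the remaining 516 (72.7%) were undecided. Deepened responses comprised 85 rises and 70 falls, whereas held responses comprised 9 rises and 28 falls. Among deepened responders, the log2 change at 30 mpk was a median 49% of that at 100 mpk (interquartile range 40.5% to 58.4%), and among held ones it was a median 98.7%. Both medians follow largely from the rules, which sort genes by the dose difference itself. They describe the classes and are not a separate result. Undecided responders had a median of 75.5%, and over all 710 the dose difference pointed along the response in 624 genes, with a median log2 size of 0.30. The median dose difference over all genes tested was 0.0074. Of the genes called between doses, 325 of 482 were not responders by these rules. The 1.5-fold limit lay between HOXB-AS3 just inside it (pooled log2 change 0.5852) and BCO2 just outside (0.5849), and GZMB (adjusted p = 0.0499) and MYB (0.0503) lay on either side of the call threshold.

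**Figure D1:**
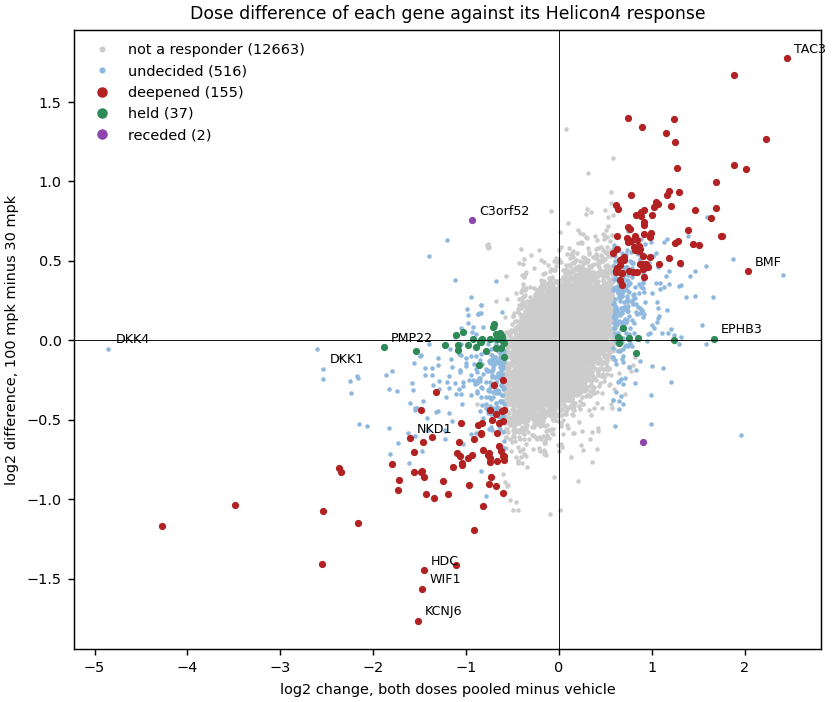
Each point is a gene, with the log2 change of both Helicon4 doses pooled against vehicle on the x axis and the log2 difference of 100 mpk minus 30 mpk on the y axis, coloured by class. Deepened responders (155) lie in the upper right and lower left, held responders (37) lie along the zero line, and the 2 receded ones lie in the other quadrants.

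Among feedback genes of the Wnt pathway, all 14 tested members of a list of 15 had a lower mean at 100 mpk than at 30 mpk, and 6 were called lower (42.9%, against 1.86% of all genes called lower), with none called higher. The list's median dose difference was -0.36 on the log2 scale, beside 0.0074 over all genes. Its median change from vehicle was -1.62 at 100 mpk and -0.87 at 30 mpk. The called members were WIF1, NKD2, TNFRSF19, NKD1, NOTUM and AXIN2. This list, like the others below, was drawn up with earlier results of these data known.

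Of the inhibitors that act inside the cell, NKD1, which binds Dishevelled, had 56.9, 70.9, 66.1, 79 and 105 CPM at 100 mpk, against 103 to 142 CPM (median 108) at 30 mpk. All libraries at 100 mpk but library 5 were below the lowest one at 30 mpk. For NKD1, limma gave a log2 difference of -0.62 ± 0.14 (SE, adjusted p = 0.00766). Vehicle libraries had 214 to 328 CPM (median 299), so the log2 change from vehicle was -1.94 at 100 mpk and -1.32 at 30 mpk, and the lower dose gave 68.2% (95% interval 56.4% to 81.2%) of the higher dose's change. NKD2, its paralog, had 46.7, 27.3, 34.9, 43.4 and 48.2 CPM at 100 mpk, against 57.8 to 107 CPM (median 80.2) at 30 mpk, with no overlap between doses. The dose difference for NKD2 was -0.99 ± 0.17 in log2 units (SE, adjusted p = 0.000904), and its share at 30 mpk was 47.3% (95% interval 32.4% to 63%). AXIN2, a scaffold of the destruction complex and the most widely used Wnt readout, had 242, 309, 253, 221 and 314 CPM at 100 mpk, against 329 to 419.5 CPM (median 386) at 30 mpk. No library overlapped between doses, and the log2 difference was -0.50 ± 0.10 (SE, limma adjusted p = 0.00469). Its change from vehicle was shallower than that of NKD1 at both doses (-0.85 at 100 mpk and -0.35 at 30 mpk), and 41% (95% interval 20.8% to 62%) of it was present at 30 mpk. Because its pooled change of -0.58 fell just short of 1.5-fold, AXIN2 is not counted among the responders.

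Of the secreted inhibitors, WIF1 and NOTUM were called between doses and DKK1 and DKK4 were not. WIF1, which binds Wnt ligands outside the cell, had 5.06, 8.59, 7.8, 7.8 and 15.9 CPM at 100 mpk, against 22.3 to 33.5 CPM (median 26.8) at 30 mpk, and 31.3 to 58 CPM (median 47.5) in vehicle. The doses did not overlap, and the log2 difference was -1.56 ± 0.22 (SE, limma adjusted p = 5.41e-05), the second largest fall with dose among genes of at least 5 CPM. Of its change from vehicle, 32.8% (95% interval 17.3% to 48.3%) was present at 30 mpk. NOTUM, an enzyme that inactivates Wnt proteins by removing their lipid, had 123, 101, 96.1, 108 and 164 CPM at 100 mpk, against 129.5 to 217 CPM (median 185) at 30 mpk. Library 5 at 100 mpk lay above libraries 1 and 6 at 30 mpk, and the other 4 lay below all 30 mpk libraries. On the log2 scale, 100 mpk minus 30 mpk was -0.61 ± 0.16 for NOTUM (SE, adjusted p = 0.0283), with 64.2% (95% interval 48.6% to 81.7%) present at 30 mpk, and the call was lost for NOTUM without 100 mpk library 2, 3 or 4 or without 30 mpk library 2, 3, 4 or 5 (adjusted p up to 0.109). DKK1 and DKK4, secreted antagonists of the LRP co-receptors, were low at both doses. DKK1 had 1.5, 2.33, 1.09, 2.81 and 1.74 CPM at 100 mpk, against 1.73 to 2.91 CPM (median 2.27) at 30 mpk, and 11.1 to 25.9 CPM (median 16.3) in vehicle, with overlapping doses. Between doses, DKK1 had a log2 difference of -0.18 ± 0.20 (SE, adjusted p = 0.705), and 93.2% (95% interval 79.6% to 109%) of its change of -2.64 was present at 30 mpk, and its dose interval of -0.58 to 0.22 was too wide to class it as held. DKK4 had 0, 0.0567, 0.0801, 0.0963 and 0.0334 CPM at 100 mpk, against 0.0236 to 0.201 CPM (median 0.0861) at 30 mpk, and 15.8 to 51.9 CPM (median 27.5) in vehicle. These values rest on 13 reads over the 5 libraries at 100 mpk and 27 reads over the 6 at 30 mpk, against 14725 reads in vehicle, and library 1 at 100 mpk had 0, which allows up to 3 reads. The depth-adjusted read ratio of 100 over 30 mpk was 0.567 (exact 95% interval 0.268 to 1.14, counting error only). Its log2 difference between doses was -0.05 ± 0.26 (SE, adjusted p = 0.948), with an interval of -0.58 to 0.47. Both doses lie within the range where the added 1 CPM sets the log2 value, so neither this difference nor a share near 100% shows that the DKK4 response was complete at 30 mpk.

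**Figure D2:**
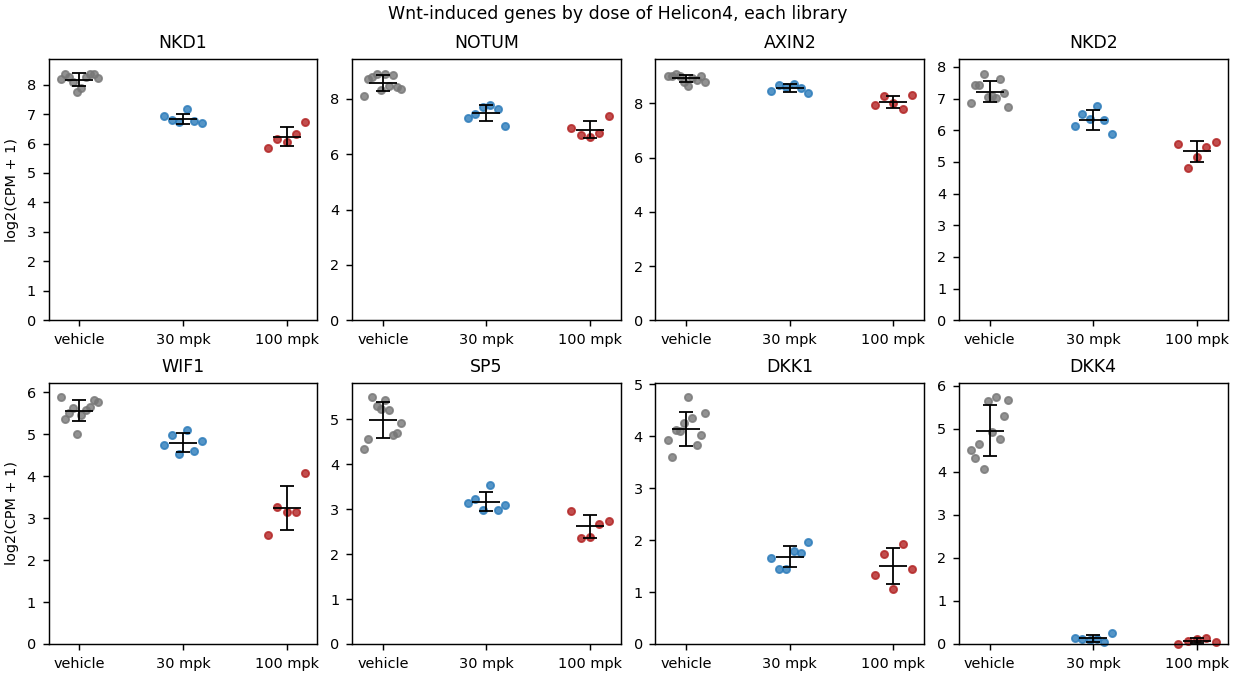
Points are single libraries for vehicle (10), 30 mpk (6) and 100 mpk (5), on a log2(CPM + 1) axis that starts at 0 in each panel, with black marks at the mean ± SD. AXIN2, NKD1, NOTUM and WIF1 have a lower mean at each higher dose, whereas DKK4 is already near 0 at 30 mpk.

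At the receptors, TNFRSF19, a TNF receptor family member and Wnt target of intestinal stem cells, had 13.9, 17.4, 15.4, 13.8 and 24.4 CPM at 100 mpk, against 25.4 to 43.2 CPM (median 34.8) at 30 mpk, with no overlap. For TNFRSF19, limma gave a log2 difference of -0.97 ± 0.19 (SE, adjusted p = 0.00309), and 50.6% (95% interval 34.7% to 67.6%) of its change was present at 30 mpk. ZNRF3 and RNF43, ubiquitin ligases that clear Frizzled receptors from the surface, were not called between doses, at -0.28 (adjusted p = 0.361) and -0.26 (adjusted p = 0.218). LGR5, the R-spondin receptor of crypt stem cells, was close to 1 CPM at either dose and was not called (-0.12, adjusted p = 0.812). In Helicon4neg tumors, NKD1, AXIN2, DKK1, DKK4, SP5 and ZNRF3 were not called against vehicle, with log2 changes between -0.01 and 0.33, and NOTUM was higher than in vehicle (0.52, adjusted p = 0.0145).

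In the limma fit of all 4 groups, no transcription factor of the core set of Wnt genes was called between doses. SP5, a zinc-finger factor induced directly by Wnt, had 6.83, 4.11, 4.24, 5.34 and 5.68 CPM at 100 mpk, against 6.86 to 10.7 CPM (median 7.68) at 30 mpk. All 100 mpk libraries were below all 30 mpk ones. The dose difference for SP5 was -0.54 ± 0.18 in log2 units (SE, adjusted p = 0.0987), which did not pass. SP5 was called in 4 alternatives: DESeq2, the Helicon4 libraries fitted alone, library weights, and without the libraries that stood apart (adjusted p from 0.00598 to 0.0481). Of its change, 77.2% (95% interval 63.9% to 92.4%) was present at 30 mpk (-2.36 at 100 mpk and -1.82 at 30 mpk from vehicle). ASCL2, a stem cell factor, was -0.25 (adjusted p = 0.626) and TCF7 was -0.34 (adjusted p = 0.187), and neither was called except with library weights (adjusted p = 0.0343 for ASCL2 and 0.0492 for TCF7). LEF1, a partner of β-catenin, differed by -0.02 with an interval of -0.22 to 0.17, and MYC by -0.05 with an interval of -0.31 to 0.22. MYC had 6433, 4603, 4846, 4702 and 5222 CPM at 100 mpk, against 4792 to 5696 CPM (median 5394) at 30 mpk. Against vehicle, MYC was not called at either dose (-0.02 at 100 mpk and 0.03 at 30 mpk). CCND1, a G1 cyclin, was -0.28 (adjusted p = 0.533).

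Promoter sequences are given for SP5 and DKK1, which were undecided with most of their change present at 30 mpk, and for HDC and WIF1, which deepened, because TCF and LEF factors recognise words of the kind CTTTGAT and CTTTGAA. They are the 250 bases before the RefSeq start site (GRCh38.p14), 5′ to 3′ on the strand of the gene, with matches to either word, on either strand, in capitals. For HDC and WIF1 the GENCODE 29 gene reaches further upstream, to 50266026 and 65121566, so these 2 stretches lie inside its span. The words share their first 6 letters and differ in the last.
SP5 (chr2:170715087-170715336, plus strand): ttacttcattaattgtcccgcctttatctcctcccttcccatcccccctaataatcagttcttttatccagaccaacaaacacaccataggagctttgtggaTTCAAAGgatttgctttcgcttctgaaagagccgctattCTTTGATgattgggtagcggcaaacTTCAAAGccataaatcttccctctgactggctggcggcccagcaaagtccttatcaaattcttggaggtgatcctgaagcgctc
DKK1 (chr10:52314031-52314280, plus strand): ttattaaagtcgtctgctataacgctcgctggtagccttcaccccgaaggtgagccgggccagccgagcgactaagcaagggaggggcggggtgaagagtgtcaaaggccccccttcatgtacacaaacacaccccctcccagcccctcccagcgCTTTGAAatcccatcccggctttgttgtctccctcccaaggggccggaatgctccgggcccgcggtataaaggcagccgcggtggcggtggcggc
HDC (chr15:50265727-50265976, minus strand): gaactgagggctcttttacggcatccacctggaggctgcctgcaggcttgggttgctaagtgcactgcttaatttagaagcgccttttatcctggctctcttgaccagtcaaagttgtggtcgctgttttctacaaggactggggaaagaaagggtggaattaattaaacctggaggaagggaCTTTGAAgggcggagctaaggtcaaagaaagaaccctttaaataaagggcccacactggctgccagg
WIF1 (chr12:65121306-65121555, minus strand): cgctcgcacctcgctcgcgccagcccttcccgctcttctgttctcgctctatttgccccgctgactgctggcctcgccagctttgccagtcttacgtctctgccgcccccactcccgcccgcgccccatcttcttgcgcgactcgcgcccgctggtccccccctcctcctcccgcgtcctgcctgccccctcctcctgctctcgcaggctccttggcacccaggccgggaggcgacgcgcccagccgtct
SP5 had 3 matches, whose first bases lay 148, 109 and 84 bases before the start site, DKK1 had 1 at 95 bases, HDC had 1 at 67 bases and WIF1 had none. In 300-base windows that reach 50 bases past the start, either word was found in 6.86% of all 35116 promoters and in 6.04% of those of the 10093 tested genes found in the table. The share was 10 of 40 (25%) for falls that deepened, 5 of 61 (8.2%) for rises that deepened and 0 of 25 for held responders. These are the promoters that could be matched, out of 70, 85 and 37 genes. Of the 14 core Wnt genes 5 were matched, and 2 of them (40%) had a word. No share was taken for undecided responders, the class of SP5 and DKK1. These counts describe letters in a window and are not a test, and AXIN2, NKD1 and NOTUM were not matched in the table.

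The largest rises with dose, among called genes with a mean of at least 5 CPM, were those of TAC3, HAPLN1, SHISA3, TMSB4X, TGFBI, COL9A1, CA10 and TNMD. TAC3 (chr12:57010000-57028883, GENCODE 29 on GRCh38), the precursor of neurokinin B, had 58.2, 59.6, 44.9, 21.9 and 24 CPM at 100 mpk, against 7.19 to 16.8 CPM (median 8.97) at 30 mpk, and 1.97 to 3.61 CPM (median 2.69) in vehicle. The doses did not overlap, the mean at 100 mpk was 3.76-fold that at 30 mpk, and the log2 difference was 1.77 ± 0.23 (SE, limma adjusted p = 2.46e-05). CA10 (chr17:51630313-52160017), a carbonic anhydrase-like protein without enzyme activity, had 9.59, 14.1, 10.6, 11.4 and 9.45 CPM at 100 mpk, against 2.16 to 5.58 CPM (median 4.45) at 30 mpk, again without overlap. On the log2 scale, 100 mpk minus 30 mpk was 1.27 ± 0.16 for CA10 (SE, adjusted p = 1.12e-05), and 56.6% (95% interval 47.7% to 65.9%) of its change was present at 30 mpk, against 48.2% for TAC3. TMSB4X, which encodes the actin-binding thymosin β4, had 134, 233, 133, 196 and 99.7 CPM at 100 mpk, against 43.6 to 77.4 CPM (median 58.3) at 30 mpk, without overlap. Between doses, TMSB4X had a log2 difference of 1.39 ± 0.22 (SE, adjusted p = 0.000218), with a caution that the gene has near-identical pseudogene copies among which the authors' counting could split reads.

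Genes for matrix and tendon proteins were among the same 8 rises. COL9A1, a collagen IX chain, had 12.7, 12, 8.33, 12.2 and 4.89 CPM at 100 mpk, against 2.18 to 4.38 CPM (median 3.37) at 30 mpk, without overlap. Its log2 difference between doses was 1.31 ± 0.21 (SE, adjusted p = 0.000355). HAPLN1, which links hyaluronan to proteoglycans, had 2.66, 22.5, 9.1, 13.6 and 11.7 CPM at 100 mpk, against 1.65 to 3.61 CPM (median 2.28) at 30 mpk, so library 1 at 100 mpk lay among the 30 mpk values. For HAPLN1, limma gave a log2 difference of 1.67 ± 0.25 (SE, adjusted p = 0.000145). TNMD, a membrane protein of tendon and ligament, had 33.8, 43.6, 35, 14 and 22.3 CPM at 100 mpk, against 7.71 to 17.6 CPM (median 12.6) at 30 mpk and overlapped. The dose difference for TNMD was 1.08 ± 0.22 in log2 units (SE, adjusted p = 0.00379). COL9A1 reached 29.8% (95% interval 10.7% to 48.6%) of its change at 30 mpk, HAPLN1 40.2% and TNMD 58.5%. In the other 2 rises, library 4 at 100 mpk stood above the rest. SHISA3, an inhibitor of Wnt and FGF receptor maturation in vertebrate embryos, had 9.54, 7.2, 10.5, 32.1 and 7.3 CPM at 100 mpk, against 2.2 to 6.89 CPM (median 3.38) at 30 mpk. The doses did not overlap. On the log2 scale, 100 mpk minus 30 mpk was 1.40 ± 0.30 for SHISA3 (SE, adjusted p = 0.00681), and at 30 mpk its change from vehicle was 0.10 (adjusted p = 0.822). TGFBI, a secreted matrix protein, had 21.4, 15.2, 22.3, 97 and 19.2 CPM at 100 mpk, against 7.58 to 12.4 CPM (median 9.76) at 30 mpk. Between doses, TGFBI had a log2 difference of 1.33 ± 0.37 (SE, adjusted p = 0.0407), from changes against vehicle of 0.80 at 100 mpk and -0.53 at 30 mpk. That call was lost for TGFBI without 100 mpk library 3 or 4, without 30 mpk library 1, 2, 3, 4 or 5, with the Helicon4 libraries fitted alone or without Helicon4neg in the fit (adjusted p up to 0.167).

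The largest falls with dose included an ion channel, the enzyme of histamine synthesis and WIF1. KCNJ6 (chr21:37607376-38121345), a G protein-gated potassium channel subunit, had 1.96, 2.69, 2.24, 2.81 and 5.96 CPM at 100 mpk, against 8.99 to 16 CPM (median 13.2) at 30 mpk, and 13.7 to 26.9 CPM (median 22.4) in vehicle. The doses did not overlap, the mean at 30 mpk was 4.03-fold that at 100 mpk, and the log2 difference was -1.76 ± 0.19 (SE, limma adjusted p = 3.72e-06). Of its change, 28.9% (95% interval 16.1% to 41.4%) was present at 30 mpk. HDC (chr15:50241947-50266026), histidine decarboxylase, had 125, 84, 97.7, 64.5 and 128 CPM at 100 mpk, against 215 to 291 CPM (median 279) at 30 mpk, and 353 to 584 CPM (median 464) in vehicle, with no overlap. Its log2 difference between doses was -1.45 ± 0.17 (SE, adjusted p = 8.14e-06), and 35.6% (95% interval 23.2% to 48%) of its change was present at 30 mpk. MYH7B, a myosin heavy chain, had 9.38, 14.6, 9.08, 12.3 and 22 CPM at 100 mpk, against 22.9 to 42.8 CPM (median 39.95) at 30 mpk, with library 5 just below the 30 mpk range. For MYH7B, limma gave a log2 difference of -1.42 ± 0.22 (SE, adjusted p = 0.000204), and its change at 30 mpk was not called against vehicle (-0.46, adjusted p = 0.114).

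GC, the vitamin D-binding protein, had 8.95, 8.42, 10.6, 7.3 and 26.3 CPM at 100 mpk, against 20.7 to 31.6 CPM (median 26.7) at 30 mpk, and library 5 at 100 mpk alone lay within the 30 mpk range. The dose difference for GC was -1.19 ± 0.21 in log2 units (SE, adjusted p = 0.000946). C9orf84 had 2.76, 6.38, 6.97, 3.77 and 11.1 CPM at 100 mpk, against 11 to 16.6 CPM (median 14.2) at 30 mpk, with library 5 just inside the 30 mpk range. On the log2 scale, 100 mpk minus 30 mpk was -1.15 ± 0.23 for C9orf84 (SE, adjusted p = 0.00346). At 30 mpk, C9orf84 had 58.7% of its change from vehicle, whereas GC was not called against vehicle (-0.37, adjusted p = 0.186, share 23.7% with an interval of 0.518% to 45.7%). ICAM5, a neuronal adhesion molecule, had 5.6, 3.23, 3.15, 4.14 and 3.74 CPM at 100 mpk, against 8.47 to 11.5 CPM (median 9.04) at 30 mpk, without overlap. Between doses, ICAM5 had a log2 difference of -1.07 ± 0.21 (SE, adjusted p = 0.00268), and at 30 mpk it was 0.04 from vehicle, with -4.3% (95% interval -49.7% to 28.8%) of the higher dose's change. GRIP2, a synaptic scaffold protein, had 10.5, 7.37, 9.34, 7.59 and 10.7 CPM at 100 mpk, against 17.7 to 21.5 CPM (median 20.6) at 30 mpk, without overlap, and 10.7 to 18.9 CPM (median 14.3) in vehicle. Its log2 difference between doses was -1.07 ± 0.15 (SE, adjusted p = 4.23e-05). Its changes from vehicle had opposite signs, at -0.57 at 100 mpk (adjusted p = 0.00147) and 0.50 at 30 mpk (adjusted p = 0.00737).

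**Figure D3:**
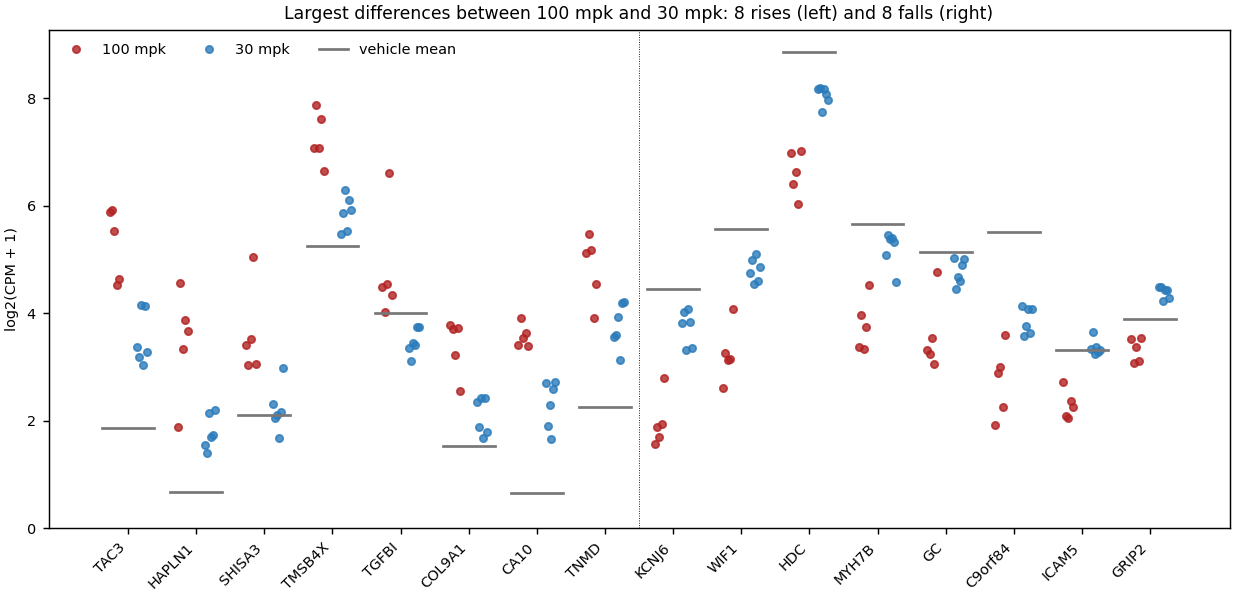
Points are single libraries of the 8 genes with the largest rises and the 8 with the largest falls between doses, with 100 mpk left of 30 mpk for each gene and a grey bar at the vehicle mean, on a log2(CPM + 1) axis. TAC3, CA10, KCNJ6, WIF1 and HDC are separated by dose with no overlap, while 30 mpk sits at the vehicle mean for ICAM5 and SHISA3.

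The 37 responders that held are, by the rule, those in which 30 mpk gave about as large a change as 100 mpk. EPHB3 (chr3:184561784-184582409), a receptor for ephrin-B ligands that positions cells in the crypt, had 44.7, 42.7, 35.3, 34.1 and 45.4 CPM at 100 mpk, against 32 to 49.7 CPM (median 40.8) at 30 mpk, and 9.1 to 14.7 CPM (median 12.3) in vehicle. All 100 mpk libraries lay within the 30 mpk range, and the difference between them was 0.01 with an interval of -0.29 to 0.31. Its change from vehicle was 1.67 at 100 mpk and 1.66 at 30 mpk, which put 99.4% (95% interval 83% to 119%) of it at 30 mpk. MYT1, a neural zinc-finger factor, had 13, 11.9, 11.6, 7.86 and 12.1 CPM at 100 mpk, against 8.21 to 14.4 CPM (median 11.2) at 30 mpk, a difference of 0.0039 with an interval of -0.25 to 0.25. The other 4 largest rises that held were ASTN2, IGDCC3, BCORL1 and GSE1, with dose differences of -0.08, 0.01, 0.02 and 0.02, and changes from vehicle at 100 mpk of 0.79, 0.77, 0.66 and 0.65.

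PMP22 (chr17:15229777-15265357), a membrane protein of myelin and epithelial junctions, was the largest fall that held. It had 3.55, 3.97, 3.9, 4.54 and 4.28 CPM at 100 mpk, against 3.64 to 5.09 CPM (median 4.14) at 30 mpk, and 14.7 to 21.8 CPM (median 18.2) in vehicle, with all 11 Helicon4 libraries below all vehicle ones. Between doses it differed by -0.04 with an interval of -0.25 to 0.17, and 97.7% (95% interval 87.5% to 109%) of its change was present at 30 mpk. PRSS23, a secreted serine protease, had 12.7, 14.5, 18.4, 19.5 and 19.99 CPM at 100 mpk, against 15.7 to 20.5 CPM (median 17.5) at 30 mpk, a difference of -0.07 with an interval of -0.32 to 0.19. BAMBI, a decoy receptor of TGF-β and BMP signaling, had 21, 33.5, 28.6, 22.9 and 29.8 CPM at 100 mpk, against 21.9 to 32.7 CPM (median 27.5) at 30 mpk. It was -1.10 at 100 mpk and -1.07 at 30 mpk from vehicle and -0.03 between doses. SPAG6, DEPDC7 and PPP1R1C also held, at 0.04, 0.05 and 0.01 between doses with changes from vehicle of -1.09, -1.01 and -0.93 at 100 mpk.

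**Figure D4:**
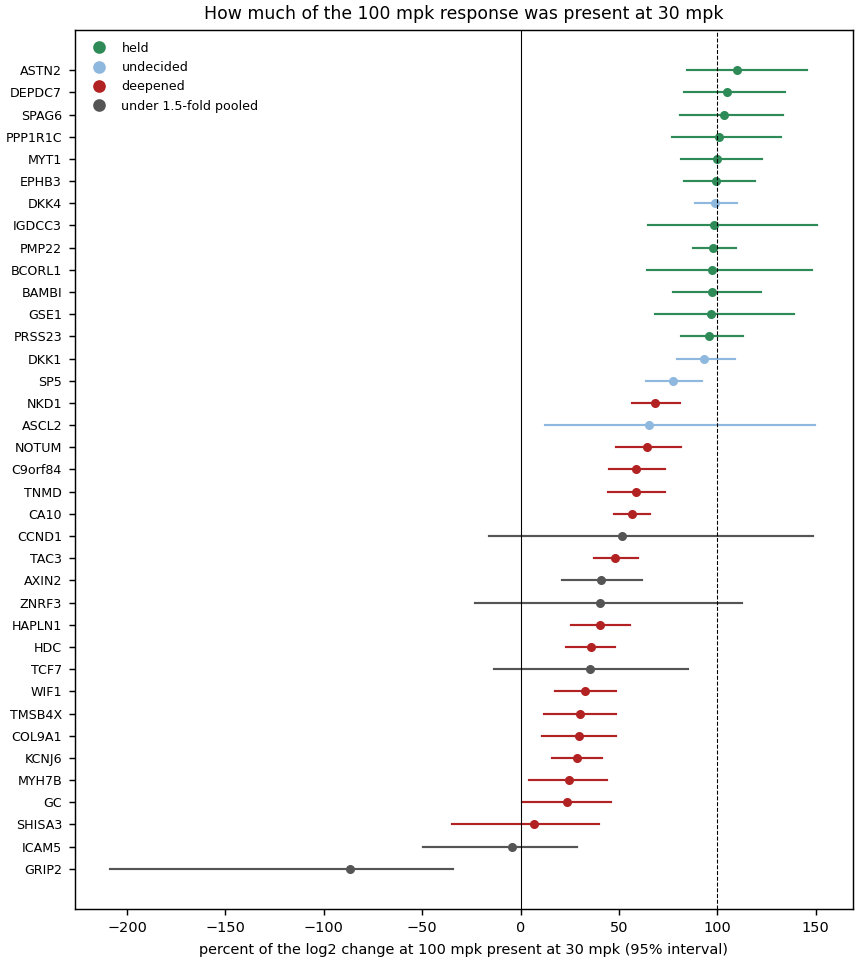
Points give the log2 change from vehicle at 30 mpk as a percent of that at 100 mpk, and bars its 95% Fieller interval, for genes called at 100 mpk against vehicle among the core Wnt genes, the largest dose differences and the largest held responses. DKK4 is drawn although the added 1 CPM fixes its share near 100%. Held genes lie around the dashed line at 100%, while the largest dose differences lie to its left, with GRIP2 and ICAM5 below 0. For GRIP2 the changes at the 2 doses had opposite signs and both were called. For ICAM5 the change at 30 mpk was near 0 (0.04) and was not called.

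Only 2 responders receded, meaning that they were further from vehicle at 30 mpk than at 100 mpk. This count is limited by the responder rule, which needs a pooled change of at least 1.5-fold. Genes whose changes had opposite signs at the 2 doses can miss that limit, as did GRIP2 (pooled log2 change 0.01). SLIT1 (0.24) also missed it, with a rise of 0.54 from vehicle at 30 mpk and no called change at 100 mpk (-0.12, limma adjusted p = 0.587). STAB2, a scavenger receptor for hyaluronan, had 1.16, 1.13, 0.934, 0.754 and 1.32 CPM at 100 mpk, against 1.82 to 3.05 CPM (median 2.04) at 30 mpk, and 0.252 to 0.537 CPM (median 0.401) in vehicle. The doses did not overlap, the log2 difference was -0.64 ± 0.09 (SE, limma adjusted p = 5.96e-05), and it rose against vehicle by 0.55 at 100 mpk and 1.19 at 30 mpk on the log2 scale. C3orf52 had 39.7, 42.9, 47.4, 53 and 28.9 CPM at 100 mpk, against 18.5 to 31.2 CPM (median 25.6) at 30 mpk, and 48.1 to 77.8 CPM (median 60.8) in vehicle. For C3orf52, limma gave a log2 difference of 0.76 ± 0.15 (SE, adjusted p = 0.0031), with changes from vehicle of -0.52 at 100 mpk and -1.28 at 30 mpk.

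In a list of S-phase replication genes, 5 of 26 members (19.2%) were called lower at 100 mpk and none higher, against 1.86% of all genes called lower, with a median of -0.14. CDT1, which licenses replication origins, had 57.5, 36.6, 41.1, 46.5 and 67.6 CPM at 100 mpk, against 72 to 102 CPM (median 80.4) at 30 mpk, without overlap (log2 difference -0.76 ± 0.14 (SE), limma adjusted p = 0.00167). MCM2 and MCM3, subunits of the replicative helicase, were -0.52 (adjusted p = 0.00974) and -0.29 (adjusted p = 0.0283), CHAF1A, a histone chaperone, was -0.37 (adjusted p = 0.0347), and MCM5, of the same helicase and named after its values were seen, was -0.43 (adjusted p = 0.0356). The call was lost for MCM2 without 100 mpk library 2 (adjusted p up to 0.0506), for MCM3 without 100 mpk library 2, 3 or 4, without 30 mpk library 2, 4, 5 or 6, with the Helicon4 libraries fitted alone or without Helicon4neg in the fit (adjusted p up to 0.126) and for CHAF1A without 100 mpk library 2, 3 or 4 or without 30 mpk library 2, 3 or 4 (adjusted p up to 0.105). Of the 22 G2/M genes tested, 0 were called, with 4 at an unadjusted p under 0.05 (17.3% of all genes tested were at that level), and of 17 G1 regulators 0 were called, with 1 at that level. By direction alone, 20 G2/M genes were lower at 100 mpk and 2 higher, with a median of -0.101. The split was 22 lower and 4 higher for the S-phase list, and 11 lower and 6 higher for the G1 regulators (median -0.0524). Among 29 ribosome biogenesis and other MYC target genes, 3 (10.3%) were called lower and none higher, again against 1.86% of all genes. TERT, the catalytic subunit of telomerase, had 5.37, 3.01, 3.36, 4.27 and 3.69 CPM at 100 mpk, against 6.11 to 9.01 CPM (median 7.25) at 30 mpk, without overlap, and the log2 difference was -0.77 ± 0.14 (SE, limma adjusted p = 0.00173). CAD, an enzyme of pyrimidine synthesis, was -0.62 (adjusted p = 0.00379), and MYBBP1A, a nucleolar protein, was -0.53 (adjusted p = 0.0129). Against vehicle they were -0.09, -0.09 and -0.10 at 30 mpk, none of them called. The call was lost for MYBBP1A without 100 mpk library 2 (adjusted p up to 0.0738). The median change of this list from vehicle was -0.44 at 100 mpk and -0.21 at 30 mpk.

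Single genes of the gut lineages were called, to be read beside the 3.6% of all genes called and 1.86% called lower. DEFA5, an α-defensin of Paneth cells and a TCF target, had 1.12, 1.11, 0.854, 3.59 and 3.16 CPM at 100 mpk, against 3.6 to 8.06 CPM (median 4.88) at 30 mpk, and 48.8 to 179 CPM (median 75.7) in vehicle, without overlap between doses. The dose difference for DEFA5 was -1.17 ± 0.29 in log2 units (SE, adjusted p = 0.0178), and 76.2% (95% interval 66% to 87.4%) of its change was present at 30 mpk. KRT20, a keratin of mature enterocytes, was 0.80 (adjusted p = 0.0135) and was the 1 of 5 enterocyte genes called, with a change of -0.07 from vehicle at 30 mpk. The call was lost for DEFA5 without 100 mpk library 2 or 3 or without 30 mpk library 5 (adjusted p up to 0.0776), for KRT20 without 100 mpk library 4 (adjusted p up to 0.0508) and for POU5F1B without 100 mpk library 4 (adjusted p up to 0.0635). The other 4 enterocyte genes tested, FABP2, CA2, CEACAM1 and CDX2, were not called, and all 4 were lower at 100 mpk. The median dose difference of the enterocyte list was -0.121, and its median change from vehicle was -0.587 at 100 mpk and -0.224 at 30 mpk. In the stem cell list, TNFRSF19 and RGMB (-0.52, adjusted p = 0.00367), a BMP co-receptor, were called lower of 12 tested. Of 22 further TCF targets, DEFA5, ETS2, a transcription factor (-0.59, adjusted p = 0.000866), and POU5F1B (-0.52, adjusted p = 0.0137) were called lower and none higher. POU5F1B is a retrocopy of POU5F1, so its reads may be shared with its parent gene. It was also the 1 called of 9 tested genes that lie near MYC or are amplified with it. Of 10 neuroendocrine genes, TAC3 was called higher and HDC and ADRA2C, an adrenergic receptor, lower. ADRA2C had 0.205, 0.17, 0.294, 0.385 and 0.635 CPM at 100 mpk, against 1 to 3.7 CPM (median 1.7) at 30 mpk, and 6.73 to 14.7 CPM (median 11.4) in vehicle, without overlap between doses. Its log2(CPM + 1) difference of -1.07 ± 0.23 (SE, limma adjusted p = 0.00507) understates the change of so low a gene, since the depth-adjusted read ratio of 100 over 30 mpk was 0.191 (exact 95% interval 0.151 to 0.240, counting error only). The same ratio was 0.422 (0.382 to 0.466) for DEFA5.

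Components of the Wnt pathway itself, as opposed to its targets, showed no call: 0 of 31 receptors, destruction complex members and nuclear cofactors passed in limma, 5 had an unadjusted p under 0.05 (17.3% of all genes did), and the list's median was -0.04. CTNNB1, which encodes β-catenin, differed by 0.12 (adjusted p = 0.411), and TCF7L2, the main TCF of the gut, by 0.03 (adjusted p = 0.947). DVL1 and DVL2, 2 of the Dishevelled proteins, had the smallest adjusted p, at -0.52 and -0.33 (adjusted p = 0.0542 and 0.0522). These 4 genes were named after their values were seen.

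Among stress and survival lists few members were called, and 1 call in a list of 24 (4.17%) is near the 3.6% of all genes. BMF, a pro-apoptotic BH3-only protein, had 46.1, 52.2, 40.9, 46.2 and 58.3 CPM at 100 mpk, against 28.8 to 43.9 CPM (median 36.9) at 30 mpk, and 7.62 to 11.5 CPM (median 9.55) in vehicle. On the log2 scale, 100 mpk minus 30 mpk was 0.43 ± 0.12 for BMF (SE, adjusted p = 0.0371), with 80.9% (95% interval 71.5% to 91.2%) of its change present at 30 mpk, and it was the 1 of 14 BCL2 family genes called. That call was lost for BMF without 100 mpk library 2, 4 or 5, without 30 mpk library 2, 4 or 6, with the Helicon4 libraries fitted alone or without Helicon4neg in the fit (adjusted p up to 0.125). From the p53 target list, TIGAR, a regulator of glycolysis, and SESN1, a sestrin, were higher at 100 mpk (0.51 and 0.41, adjusted p = 0.00733 and 0.0279), 2 of 18 tested, with the call lost for SESN1 without 100 mpk library 2 or 3, without 30 mpk library 2 or 4 or with the Helicon4 libraries fitted alone (adjusted p up to 0.143). Over the 18 p53 targets, 10 were lower at 100 mpk and 8 higher, with a median dose difference of -0.0875. TIGAR was 0.28 from vehicle at 100 mpk and -0.23 at 30 mpk, the latter not called (limma adjusted p = 0.116). EGLN3, an oxygen-sensing prolyl hydroxylase, was the 1 of 24 hypoxia and glycolysis genes called (0.58, adjusted p = 0.00547). Of these 24 genes, 18 were lower at 100 mpk and 6 higher, with a median dose difference of -0.215. The amino acid response genes of ATF4 had median changes from vehicle of -0.63 at 100 mpk and -0.36 at 30 mpk, and CBS, an enzyme of transsulfuration, was the 1 of 24 called between them (-0.45, adjusted p = 0.0161). In this list 19 genes were lower at 100 mpk and 5 higher, with a median dose difference of -0.182. In limma, 10 of the 24 had an unadjusted p under 0.05, against 17.3% of all genes tested. By class, 1 member held and 9 were undecided. ASNS of the same list held (0.01 between doses, -0.66 from vehicle at 100 mpk), and was named after its values were seen. For sterol synthesis, LSS, FDPS and SREBF2 were called lower of 23 tested (13%, against 1.86% of all genes) (-0.57, -0.35 and -0.41, adjusted p = 0.0278, 0.0287 and 0.0485). SREBF2 encodes the transcription factor of the pathway, and LSS and FDPS encode enzymes within it. The call was lost for CBS without 100 mpk library 2 or 4 or without 30 mpk library 4 (adjusted p up to 0.0839), for LSS without 100 mpk library 2, 3 or 4 or without 30 mpk library 3, 4 or 5 (adjusted p up to 0.128), for FDPS without 100 mpk library 2, 3 or 4, without 30 mpk library 2, 3 or 4 or without Helicon4neg in the fit (adjusted p up to 0.114) and for SREBF2 without 100 mpk library 2, 3 or 4, without 30 mpk library 1, 2, 3, 4 or 6, with a pseudocount of 0.1, with a filter of 5 CPM, without trend and robust fitting, with the Helicon4 libraries fitted alone, without Helicon4neg in the fit or in edgeR (adjusted p up to 0.236).

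Interferon-stimulated genes gave no call between the doses: 0 of 30 passed in limma, 12 had an unadjusted p under 0.05, against 17.3% of all genes, and 28 of 30 had a higher mean log2 value at 100 mpk. Their median dose difference was 0.26, beside medians from vehicle of 0.78 at 100 mpk and 0.50 at 30 mpk. Of the 30, 15 were responders and all 15 were undecided. IFIT1 (0.61, adjusted p = 0.0532) was among the closest to a call and IFI44L (0.78, adjusted p = 0.0975) had the largest difference, both named after their values were seen. The 12 genes of BMP targets, ID factors and inhibitory SMADs also gave 0 calls (6 at an unadjusted p under 0.05) with a median of 0.31, and in this list ID2 was 0.64 (adjusted p = 0.0878) while BAMBI held. MHC class I genes (17), unfolded protein response genes (19), immediate early genes (22) and transcripts of the mitochondrial genome (13) had 0 calls each, with 1, 4, 4 and 0 at an unadjusted p under 0.05.

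Guidance genes included 4 calls of 43 tested (9.3%, against 3.6% of all genes). UNC5B, a netrin receptor, was higher at 100 mpk (0.56, adjusted p = 0.0345) and did not overlap. SEMA4D and SEMA5B, semaphorins, were lower (-0.35 and -0.83, adjusted p = 0.0193 and 0.0317), likewise without overlap, and the read ratio of SEMA5B, another low gene, was 0.278 (exact 95% interval 0.220 to 0.347). SLIT1, a ligand of ROBO receptors, was lower at 100 mpk (-0.66, adjusted p = 0.0239) with a change of 0.54 from vehicle at 30 mpk (adjusted p = 0.0117), and its libraries overlapped. At 100 mpk, SLIT1 was not called against vehicle (-0.12, limma adjusted p = 0.587). The call was lost for UNC5B without 100 mpk library 2, 3, 4 or 5 or without 30 mpk library 1, 2, 5 or 6 (adjusted p up to 0.0882), for SEMA4D without 100 mpk library 2 or 4 or without 30 mpk library 5 (adjusted p up to 0.0651), for SEMA5B without 100 mpk library 1, 2, 3 or 4 or without 30 mpk library 1 or 4 (adjusted p up to 0.101) and for SLIT1 without 100 mpk library 2 or 4 or without 30 mpk library 1 or 4 (adjusted p up to 0.12).

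**Figure D5:**
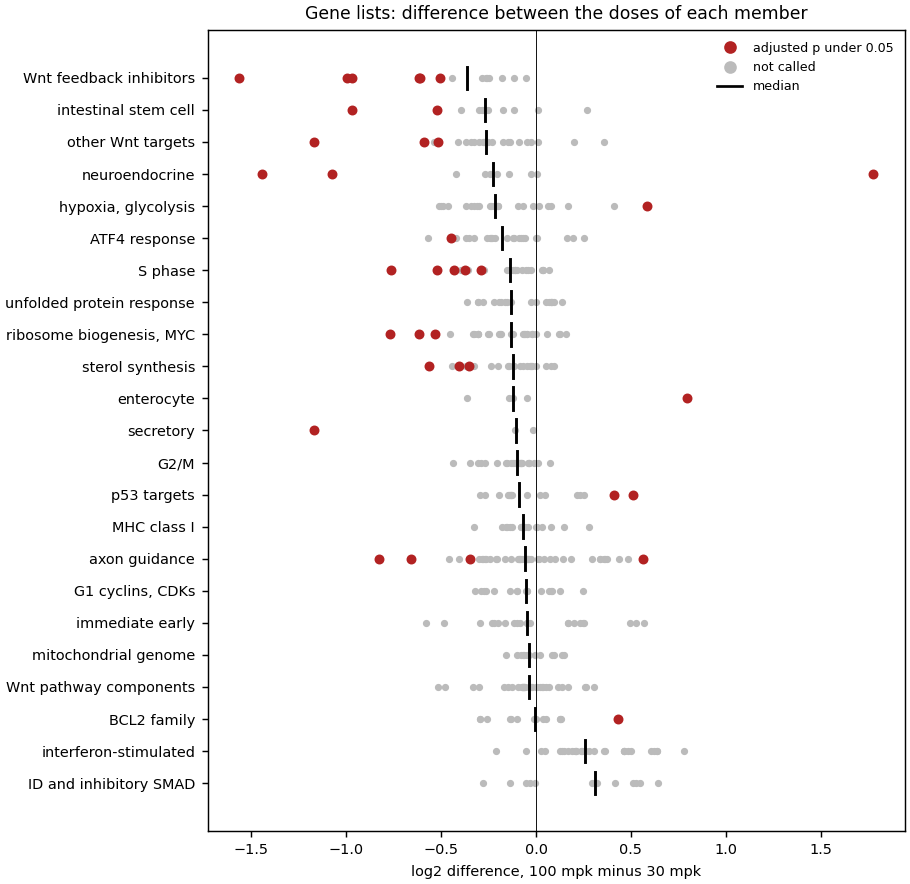
Each point is the log2 difference of 1 gene between 100 and 30 mpk, red where limma's adjusted p was under 0.05, with a black bar at the median of each list. The Wnt feedback list has a median of -0.36, the lowest of the lists drawn, which leave out the cell type markers, and 6 called members, all lower, whereas the interferon list has a median of 0.26 and no called member.

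Bulk tumor RNA mixes cell types, and fewer cells of a type cannot be told apart here from less RNA per cell. The tumor label was checked by 12 epithelial genes, of which 7 were in the table. EPCAM, KRT8, KRT18, KRT20, CDX2 and GPA33 were present at both doses, and KRT19 averaged under 1 CPM. CDH1, CDX1, VIL1, CEACAM5 and LGALS4 were not in the table. No mouse genome is named in the processing, so host reads may be counted under human genes. Endothelial markers (4 of 11 tested) summed to 106 to 154 CPM at 100 mpk and 154 to 190 CPM at 30 mpk, with means of 119 CPM at 100 mpk and 166 CPM at 30 mpk (exact two-sided permutation p = 0.00433, adjusted p = 0.0216 over 10 library measures). This sum was mostly ERG, with means of 85.2 CPM at 100 mpk and 120.7 CPM at 30 mpk, followed by EGFL7 (28.9 and 38.4 CPM). CLDN5 (3 and 5.5 CPM) and ESAM (1.6 and 1.9 CPM) added little, and all 4 were lower at 100 mpk. The listed markers PECAM1, CDH5, KDR, TEK, TIE1, VWF and ROBO4 were not in the table. Whether the ERG and EGFL7 transcripts came from endothelial or tumor cells was not tested, so the sum is not a measure of endothelial content. ERG of this list was called lower (-0.51, adjusted p = 0.0252), a call lost for ERG without 100 mpk library 1, 2, 3 or 4 or without 30 mpk library 2 or 4 (adjusted p up to 0.077). Fibroblast markers (12 of 20 tested) summed to 129 to 197 CPM at 100 mpk and 159 to 214 CPM at 30 mpk (exact permutation p = 0.128, adjusted 0.319), with PDGFRA (0.72) and RGS5 (0.62) called higher and BGN (-0.83) lower at adjusted p of 0.000145, 0.00572 and 0.00881. Leukocyte markers (4 of 15 tested) summed to 26.5 to 38.7 CPM at 100 mpk and 25.5 to 36.3 CPM at 30 mpk (exact permutation p = 0.253, adjusted 0.506), with 0 calls in limma and 0 at an unadjusted p under 0.05. Of 15 muscle, fat and skin markers, KRT10 alone was tested, at 17.4 to 27.4 CPM at 100 mpk and 15.2 to 18.1 CPM at 30 mpk. By itself it was higher at 100 mpk in the exact permutation test (p = 0.00433, adjusted 0.0216 over 10 measures), while limma over all genes did not call it (adjusted p = 0.198). The summed epithelial markers, mostly CDX2, averaged 2460 CPM at 100 mpk and 2990 CPM at 30 mpk (exact permutation p = 0.0411, adjusted 0.137). Of the 6 tested in limma, only CDX2 was lower at 100 mpk (-0.36). The other 5 were higher, KRT20 alone being called, and the list's median dose difference was 0.148. The part of these markers in the results for matrix genes such as COL9A1, HAPLN1 and TGFBI was not tested. The 5 technical measures among the 10, which were depth, mitochondrial share, share of the top 50 genes, ribosomal protein share and the slope of log2 values on gene length, gave exact two-sided permutation p values of 0.548 to 0.879 between doses over all divisions of the 11 libraries (smallest p possible 0.00216, Benjamini-Hochberg adjusted p of 0.879 over 10 measures).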

How the data were processed

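RNA was measured by polyA RNA-seq in 29 xenograft libraries of 4 groups. Per the submitters' processing notes, the authors used Trimmomatic 0.39, STAR 2.7.7a, featureCounts of Subread 2.4.2 and edgeR 4.0.2 on GRCh38; settings and annotation are not given in the sources used here, and the labels name more than 1 library kit. The deposited values are a signal per gene, counts divided by a scaled library size, here called CPM. Dividing by the size of the smallest step gave whole reads (tolerance 0.05) for 100% of values, from which depth was recovered.

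Each comparison used limma 3.58.1 (R 4.3.3) on log2(CPM + 1), with trend and robust fitting over all 4 groups, for genes that reached 1 CPM in 5 or more libraries, with Benjamini-Hochberg adjustment over all 13373. Fold changes on this scale understate changes of low genes. A limma fit was kept as the main test because the values are not raw counts, and edgeR 4.0.16 and DESeq2 1.42.0 on recovered reads were alternatives. Scripts were tested on simulated data. Library measures were compared by exact permutation tests. Intervals are 95% and those of reads cover counting error only.

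Named genes were a core set of Wnt genes, the 8 largest rises and falls between doses with a mean of at least 5 CPM, up to 4 called members per gene list by adjusted p, and the largest held and receded responders. The members and lists were chosen with earlier results of these data known. Alternatives covered pseudocount, filters, scaling, libraries in the fit, blocks, weights, tools, thresholds and leaving out each Helicon4 library. In the table, 20 symbols had been turned into dates and 10 were duplicated; no gene is named from them.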

Additional observations from a re-analysis of the deposited data

Results flagged for a closer look

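Over 160 sets of values (a named gene or a library measure within 1 dose group), 13 had 1 library whose gap to the others was large for its group size by Dixon's criterion, and chance gives about 1 in 20, or 8. At 100 mpk, library 4 had 32.1 CPM of SHISA3 against 7.2 to 10.5 CPM in the others, 97 CPM of TGFBI against 15.2 to 22.3 CPM, and 7.86 CPM of MYT1 against 11.6 to 13 CPM. Library 5 at 100 mpk had 5.96 CPM of KCNJ6 against 1.96 to 2.81 CPM, 26.3 CPM of GC against 7.3 to 10.6 CPM, 60.9 CPM of CHAF1A against 47.2 to 50.5 CPM and 0.852 CPM of SEMA5B against 0.182 to 0.337 CPM. Library 2 at 100 mpk had 9.93 CPM of SPAG6 against 5.73 to 6.47 CPM. At 30 mpk, library 6 had 6.89 CPM of SHISA3 against 2.2 to 3.96 CPM, and library 2 had 11.5 CPM of ICAM5 against 8.47 to 9.27 CPM. Library 4 at 30 mpk had 2.7 CPM of SEMA5B against 1.05 to 1.62 CPM, 27.6 CPM of BGN against 17.1 to 21 CPM, and 17.5% of its reads in the top 50 genes against 18.6% to 19.2%.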

How the results depend on the processing

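All 482 genes called between doses kept their direction in every setting tried, though 368 of them were tested with at least 5 CPM. These settings refit the same libraries or some of them, and the genes were chosen by this difference. The kept direction is therefore not separate support. Leaving out 1 Helicon4 library gave 209 to 704 calls (101 to 312 higher, 108 to 392 lower), 120 to 239 of at least 1.5-fold, 646 to 785 responders, 92 to 167 deepened, 19 to 36 held, 2 to 5 receded, 492 to 626 undecided, and against vehicle 2964 to 4367 calls at 100 mpk, 986 to 1515 at 30 mpk and 569 to 715 for Helicon4neg. With a pseudocount of 0.1, 21 responders held and 820 were undecided. With at least 5 CPM, 145 genes were higher, 116 differed by at least 1.5-fold, 100 responders deepened, 24 held and 1 receded. The replicate numbers shared by the groups did not pair the libraries (correlations of deviations -0.566, -0.102, -0.43, 0.195 and -0.596, with 0 of 5 libraries closest to their own number); with the replicate block there were 366 calls, 1066 responders and 875 undecided, and the calls of DEFA5, MCM3, CHAF1A, BMF, FDPS, SREBF2, SEMA5B, UNC5B and ERG were also lost.

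With title code as a block, where the dose difference rests on 4 libraries against 1, there were 10 calls (7 higher, 3 lower), all 10 of at least 1.5-fold, 120 responders, 5 deepened, 0 held, 0 receded and 115 undecided, with 141, 74 and 2 calls against vehicle for 100 mpk, 30 mpk and Helicon4neg, and the share of MYH7B at 30 mpk turned to -5.625%. Library weights gave 3904 calls (1902 higher, 2002 lower), 334 of at least 1.5-fold, 345 deepened, 85 held, 13 receded and 246 undecided, with 6223, 3844 and 3897 calls against vehicle in the same order. Without Helicon4neg library 2 and vehicle library 6 there were 1052 calls (474 higher, 578 lower), 6 receded, and 2031 calls for Helicon4neg. edgeR gave 457 calls, 1069 responders, 22 held, 4 receded and 858 undecided. DESeq2 gave 750 calls (407 lower), 309 of at least 1.5-fold, 1092 responders, 243 deepened, 23 held, 5 receded, 821 undecided and 1105 calls for Helicon4neg. Requiring 1.5-fold left 175 calls (74 higher, 101 lower), and a held limit of 1.5-fold gave 252 held and 301 undecided. The cause of these changes was not tested beyond the fewer genes or libraries that a setting uses. The Helicon4 libraries fitted alone give no responder classes. Of 52 named genes called, 32 were lost in no setting besides the code block and 5 were kept with it.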
